A study of Mus musculus with 16 samples.

Results

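The C1q chains are encoded by 3 genes, C1qa, C1qb and C1qc, which were found by their symbols among the 24421 genes of the count table. They had been chosen from measured values of these same libraries, over the 4 groups described here, so their levels and their differences between groups are given as a description, without a test. The libraries came from MC38-Ova tumours, a mouse colon adenocarcinoma line that carries ovalbumin, grown under the skin of female C57BL/6 mice with the Kaede transgene and given no therapy. Kaede is a fluorescent protein that violet light turns from green to red. Tumours were illuminated, then collected 24h or 72h later, and live CD45+ TER119- NK1.1- Kaede+ CD11b+ cells were sorted by colour. Kaede-green cells had entered the tumour after the illumination, and Kaede-red cells had been in it at that time and stayed. Each colour had 4 libraries at 24h and 4 at 72h, and all 16 carry the same batch label. The sort used no macrophage-specific marker, so other CD11b+ cells could be present, and the labels do not say which libraries came from the same tumour.

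C1q is the recognition part of the first component of the classical complement pathway. It is assembled from A, B and C chains, each with a collagen-like stalk and a globular head, and it binds antibody in immune complexes as well as the surface of dying cells. Bound C1q activates the proteases C1r and C1s, which cleave C4 and C2 and lead to the cleavage of C3, and the inhibitor encoded by Serping1 stops these proteases. Unlike most complement proteins, which come from the liver, C1q is made mainly by macrophages and related myeloid cells.

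The chain genes lie side by side on the minus strand of chromosome 4 of mm10, in the order C1qb (136880129 to 136886187), C1qc (136889804 to 136893065) and C1qa (136895917 to 136898803). The cluster spans 18675 bases, with gaps of 3616 bases between C1qb and C1qc and 2851 bases between C1qc and C1qa. No other annotated gene overlaps a chain, none lies between them, and each has at most 3 exons per transcript. Sequence upstream of the start was at hand for 2 of the 3 chains, from RefSeq on GRCm38.p6, and is shown because all 3 chains were higher in Kaede-red cells. For C1qb it covers chr4:136886201-136886450 on the minus strand. For C1qc it covers chr4:136893066-136893164 on the minus strand, the stretch that no annotated transcript covers. Capitals mark the MAF motif core TGCTGA and the short PU.1 motif GAGGAA on either strand.
C1qb: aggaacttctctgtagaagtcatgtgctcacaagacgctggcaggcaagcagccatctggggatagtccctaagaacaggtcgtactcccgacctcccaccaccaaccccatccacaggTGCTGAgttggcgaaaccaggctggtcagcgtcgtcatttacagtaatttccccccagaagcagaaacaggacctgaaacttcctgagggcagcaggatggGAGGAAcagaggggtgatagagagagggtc
C1qc: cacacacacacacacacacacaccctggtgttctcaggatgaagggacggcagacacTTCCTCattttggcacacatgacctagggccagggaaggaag
In the 250 bases upstream of C1qb the MAF core lay 131 bases and the short PU.1 motif 30 bases from the RefSeq start. The MAF core was present in 16.1% and the PU.1 motif in 23.3% of 32851 promoters searched over the same length on both strands. The ETS core CAGGAAGT, which shares the letters GGAA with the PU.1 motif, was found 53 bases upstream of C1qb on the opposite strand and in 2.69% of promoters. Upstream of C1qc, the short PU.1 motif was present on the opposite strand, 193 bases from the RefSeq start. The NF-kB motif was found 190 and 191 bases upstream of C1qb, and in 45.8% of all promoters. For C1qc it lay 40 and 41 bases from the RefSeq start, inside an annotated transcript and outside the stretch printed above. No match to the MAF core was found upstream of C1qc, and none upstream of either chain to the motifs of C/EBP (TTGCNNAA), AP-1 (TGANTCA), MITF and TFE factors (CACGTG), GAS elements (TTCNNNGAA), IRF factors, PU.1 with IRF or the TATA box (TATAAA).

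The libraries held 3216858 to 15423085 counts. The ribosomal RNA gene Rn45s took 79.0 to 93.4% of the counts in Kaede-green and 55.8 to 84.9% in Kaede-red libraries, leaving 468092 to 912689 and 758192 to 5472477 counts for all other genes. Levels are therefore given in CPM, counts scaled to a common library total with TMM factors, on which a dominant gene such as Rn45s has little weight. In a fit of 9642 genes by edgeR's quasi-likelihood test, 10.05% were higher and 10.3% lower in Kaede-red than in Kaede-green cells over both times, at an adjusted p under 0.05. Scaled by total counts alone, 9318 genes were higher and 10 lower, and the median log2 fold change was 2.20 instead of 0.06.

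All 3 chains were high in Kaede-red and low in Kaede-green cells at both times. In Kaede-green cells at 24h the 4 libraries held 20, 18, 27 and 20 counts of C1qa, equal to 11.2, 7.37, 6.88 and 8.18 CPM. The Kaede-red libraries of the same time held 1078, 760, 409 and 838 counts, equal to 94.7, 92.4, 74.2 and 54.1 CPM. The lowest Kaede-red library thus stood well above the highest Kaede-green library of that time. At 72h the Kaede-green libraries had 13.9, 15.9, 22.6 and 21.9 CPM of C1qa, on 38 to 93 counts. The Kaede-red libraries at 72h had 94.3, 90.2, 74.4 and 81.1 CPM, on 492 to 3849 counts. The mean C1qa level at 24h was 8.40 ± 1.91 CPM (SD, n = 4) in Kaede-green against 78.9 ± 18.9 CPM in Kaede-red cells, and at 72h 18.6 ± 4.33 against 85.0 ± 8.95 CPM. In bulk libraries a smaller number of C1q-expressing cells and less C1q RNA per cell cannot be told apart.

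**Figure D1:**
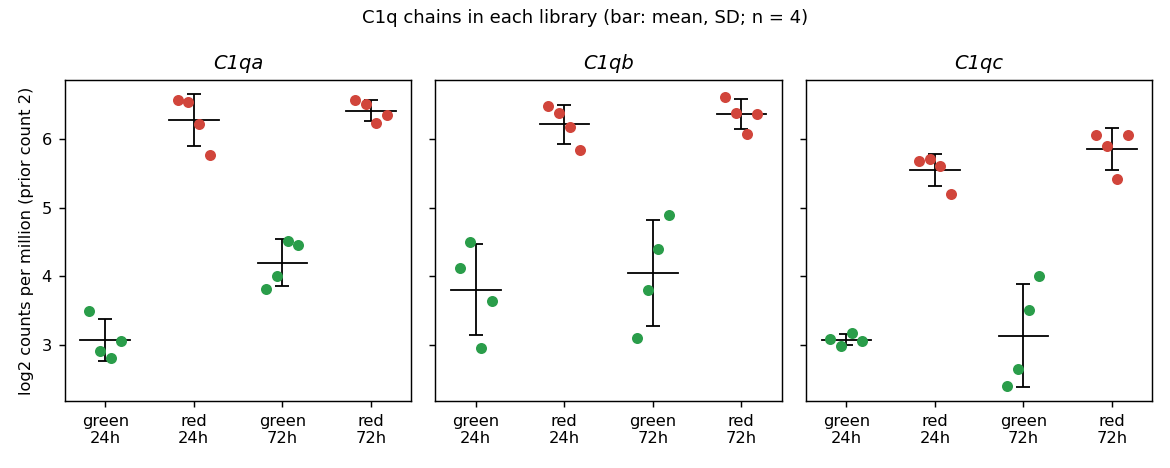
Level of C1qa, C1qb and C1qc in each library, as log2 CPM with a prior count of 2 on the vertical axis and the 4 groups on the horizontal axis. Points are libraries, and bars give the mean and SD (n = 4). For each chain all 8 Kaede-red libraries lie above all 8 Kaede-green libraries.

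C1qb, the B chain, varied more among the Kaede-green libraries. They had 17.3, 22.5, 7.64 and 12.3 CPM at 24h and 8.41, 13.7, 20.9 and 29.4 CPM at 72h, on 23 to 113 counts. The Kaede-red libraries had 88.7, 82.8, 71.5 and 56.8 CPM at 24h and 96.9, 82.9, 67.1 and 82.0 CPM at 72h, on 394 to 3895 counts. The coefficient of variation between libraries was 43.0% and 50.2% in Kaede-green cells at 24h and 72h, against 18.8% and 14.8% in Kaede-red cells. The Kaede-green libraries of the 2 times overlapped, as did the Kaede-red libraries, while the colours did not.

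C1qc, the C chain, was even among the Kaede-green libraries at 24h, with 8.36, 7.78, 8.92 and 8.18 CPM on 15 to 35 counts. At 72h the Kaede-green libraries spread from 5.12 and 6.11 to 11.2 and 15.9 CPM, on 14 to 61 counts. The Kaede-red libraries had 50.7, 51.8, 48.4 and 36.5 CPM at 24h and 66.0, 59.2, 42.5 and 66.0 CPM at 72h, on 267 to 3136 counts. The highest Kaede-green values of C1qb and C1qc were both in the Kaede-green 72h replicate 4, the Kaede-green library with the lowest Rn45s share (79.0%).

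The red-green difference, the log2 fold change of Kaede-red over Kaede-green cells, was 2.72 for C1qa (standard error 0.16), 2.26 for C1qb (0.20) and 2.53 for C1qc (0.18) with both times combined, which correspond to 6.61, 4.80 and 5.79 times. These ranked 40, 60 and 48 from the top among the 9642 genes tested. All 3 chains had every Kaede-red library above every Kaede-green library, as did 1.19% of all genes. Since the chains were chosen on this contrast, nothing is read from that count. At 24h, where 7.50% of genes passed the test in either direction, the log2 fold change was 3.26 for C1qa (0.24), 2.36 for C1qb (0.29) and 2.49 for C1qc (0.27). At 72h, where 16.8% of genes passed, it was 2.18 for C1qa (0.22), 2.16 for C1qb (0.28) and 2.58 for C1qc (0.25). With the Rn45s share of each library as a covariate the values over both times were 2.33 for C1qa, 1.70 for C1qb and 2.04 for C1qc, and scaled by total counts they were 4.89, 4.32 and 4.65.

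From 24h to 72h, C1qa in Kaede-green cells was the case in which the libraries of the times did not overlap. All its Kaede-green libraries at 72h stood above those at 24h, as for 1.92% of all genes, with a log2 fold change from 24h to 72h of 1.19 (standard error 0.25). Across all genes 0 passed this comparison by edgeR, with 835 at an unadjusted p under 0.05 and 12 by DESeq2. In Kaede-green cells C1qb changed by 0.34 (0.30) and C1qc by 0.23 (0.29) on that scale, each with overlapping libraries. Without the Kaede-green 72h replicate 4 these became 0.01 for C1qb and -0.12 for C1qc. In Kaede-red cells the values were 0.11 for C1qa (0.20), 0.14 for C1qb (0.25) and 0.32 for C1qc (0.22), with overlapping libraries for each. Without the Kaede-red 24h replicate 4 the value for C1qa was -0.03. After fitting the Rn45s share as well, C1qa and C1qb turned to -0.061 and -0.14, and C1qc was at 0.062. The shift of the red-green difference from 24h to 72h was -1.08 (0.32) for C1qa, -0.20 (0.39) for C1qb and 0.10 (0.37) for C1qc. Across all genes 0.757% passed the test for such a shift. For C1qb it turned to 0.13 without the Kaede-green 72h replicate 4, and for C1qc it lay between -0.10 (without the Kaede-green 72h replicate 1) and 0.45 (without replicate 4 of that group) as libraries were left out.

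Per kb of exon, C1qa and C1qb overlapped in the Kaede-red libraries and C1qc lay beneath them. In Kaede-red cells at 72h the level was 81.7 ± 8.60 CPM per kb for C1qa (SD, n = 4), 75.6 ± 11.2 for C1qb and 30.3 ± 5.75 for C1qc. The exon lengths behind these values, joined over all annotated transcripts of a gene, were 1040, 1088 and 1931 bases. C1qc has 2 annotated transcripts and the other chains 1 each, so its level per kb depends on which of them the cells use. The C1qa and C1qb libraries overlapped in this group, and all C1qc libraries were lower. In Kaede-green cells at 24h the level was 8.07 ± 1.84 CPM per kb for C1qa, 13.7 ± 5.90 for C1qb and 4.30 ± 0.244 for C1qc. Of 9287 genes ranked per kb in each library, C1qa took ranks 51 to 97 in Kaede-red cells at 72h, C1qb 53 to 115 and C1qc 160 to 367. In Kaede-green cells at 24h the ranks were 817 to 1089 for C1qa, 524 to 1034 for C1qb and 1360 to 1613 for C1qc.

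The ratio of C1qa to C1qb varied less among Kaede-red than among Kaede-green libraries. There were 1.07, 1.12, 1.04 and 0.953 C1qa counts per C1qb count in the Kaede-red libraries at 24h, and 0.973, 1.09, 1.11 and 0.988 at 72h. The Kaede-green libraries had 0.645, 0.327, 0.900 and 0.667 at 24h and 1.65, 1.16, 1.08 and 0.743 at 72h. C1qa was thus the scarcer of the pair in all 4 Kaede-green libraries at 24h. The C1qa counts per C1qc count ran from 1.48 to 1.87 at 24h and from 1.23 to 1.75 at 72h in Kaede-red libraries, against 0.771 to 1.33 and 1.38 to 2.71 in Kaede-green libraries. For C1qb per C1qc the Kaede-red libraries had 1.48 to 1.75 at 24h and 1.24 to 1.58 at 72h, and the Kaede-green libraries 0.857 to 2.89 and 1.64 to 2.25. On the log2 scale the SD of this last set (0.19) was below that of C1qa per C1qc in Kaede-red cells at 72h (0.21), so the ratios to C1qc were not all tighter in Kaede-red cells. As a share of the per-kb level of the 3 chains, C1qa made up 31.7 ± 6.37% (SD, n = 4) in Kaede-green cells at 24h and 44.6 ± 1.84% in Kaede-red cells of the same time. Later, at 72h, it made up 47.3 ± 7.82% in Kaede-green cells against 43.7 ± 2.10% in Kaede-red cells. C1qc made up 17.5 ± 5.68%, 14.5 ± 1.10%, 12.1 ± 1.91% and 16.1 ± 1.67% in the same order. The Kaede-green shares rest on 66 to 258 counts of all 3 chains per library and the Kaede-red shares on 1070 to 10880, so the former are the less precise.

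**Figure D2:**
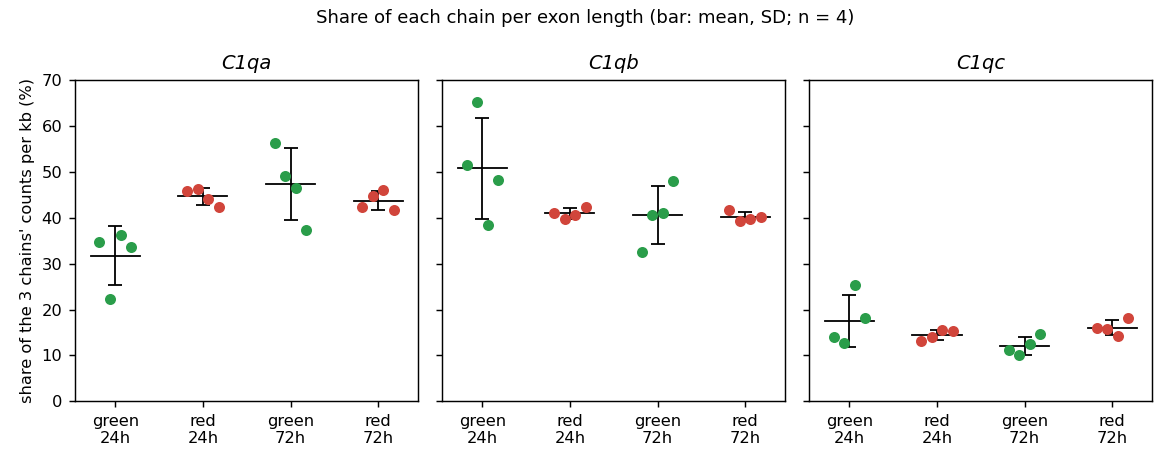
Share of each chain in the summed per-kb level of C1qa, C1qb and C1qc, in percent, for each library of the 4 groups. Points are libraries, and bars give the mean and SD (n = 4). The C1qa share is lowest in Kaede-green cells at 24h, at 31.7 ± 6.37%.

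Over all 16 libraries the chains varied together. Over the 16 libraries the correlation of log2 CPM was 0.94 between C1qa and C1qb, 0.95 between C1qa and C1qc, and 0.96 between C1qb and C1qc. After the mean of each group was subtracted it was 0.71, 0.69 and 0.70. These are descriptions, and the values of a library share its depth and its scaling. The correlations over the 16 libraries include the colour difference on which the chains were chosen. Within Kaede-green cells at 24h, replicate 2 had the highest C1qb (22.5 CPM) and the lowest C1qc (7.78 CPM). Replicate 3 of that group had the lowest C1qb (7.64 CPM) and the highest C1qc (8.92 CPM). These C1qc values rest on 19 counts in replicate 2 and 35 in replicate 3 and lie close together, so nothing is read from their order.

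C1q was also set against genes that macrophages share, by dividing the summed counts of the chains by the counts of another gene in the same library, which needs no scaling between libraries. Per count of Adgre1, which encodes the macrophage surface protein F4/80, the Kaede-green libraries held 3.14, 2.36, 1.48 and 2.50 C1q counts at 24h and 1.67, 2.21, 3.36 and 3.19 at 72h. The Kaede-red libraries held 4.87, 5.32, 5.35 and 5.79 at 24h and 4.47, 4.25, 3.54 and 4.76 at 72h. Every Kaede-red library was above every Kaede-green library, so the C1q chains differed by more than Adgre1 did. The chains were chosen on this contrast, so that is a description. Per count of Csf1r, the receptor for colony stimulating factor, the mean was 0.858 ± 0.277 (SD, n = 4) in Kaede-green against 4.22 ± 0.637 in Kaede-red cells at 24h. The later values were 1.36 ± 0.530 and 2.12 ± 0.285 at 72h, and there the ranges met, since the lowest Kaede-red library had 1.71 and the highest Kaede-green library 1.91. Per count of Cd68, a lysosomal protein of macrophages, the mean was 0.757 ± 0.0963 and 2.86 ± 0.526 at 24h, and 1.30 ± 0.362 and 2.25 ± 0.239 at 72h. Per count of the mannose receptor gene Mrc1 the colours overlapped at 72h, with 2.17 to 8.06 in Kaede-green against 3.57 to 8.76 in Kaede-red cells.

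**Figure D3:**
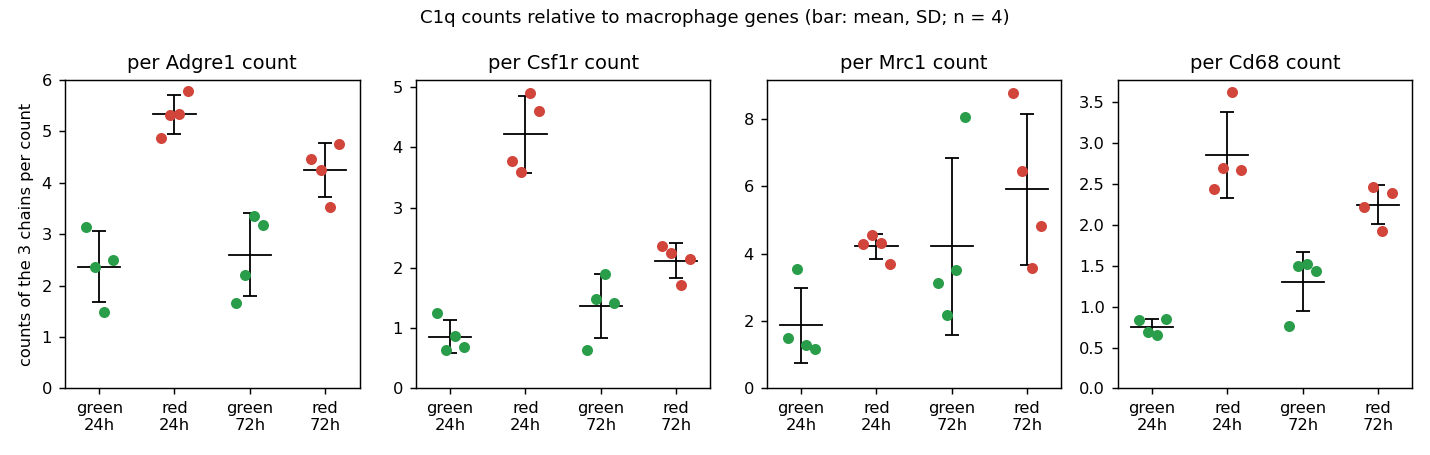
Summed counts of the 3 C1q chains per count of Adgre1, Csf1r, Mrc1 and Cd68 in each library of the 4 groups. Points are libraries, and bars give the mean and SD (n = 4). The colours are apart at both times for Adgre1 and Cd68, and they overlap at 72h for Csf1r and Mrc1.

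The genes most like the chains were ranked among 1388 others with a mean log2 CPM of at least 4, by the correlation with the mean of the chains over the 16 libraries. The 10 highest, in order, were Lgmn (0.976), C3ar1, Txnip, Ctsb, Adgre1, Slamf7, Dab2, H2-K1, Cltc and Cd72 (0.930). With the mean of each group subtracted, their correlations ran from 0.66 for Txnip to -0.13 for Cd72, with 0.33 for both Dab2 and H2-K1. The likeness of Cd72 thus lay in the group means. Lgmn and Ctsb encode the lysosomal proteases legumain and cathepsin B, C3ar1 the receptor for the complement fragment C3a, and Dab2 and Cltc proteins of endocytosis. Lgmn differed between the colours by a log2 fold change of 1.67 at 24h and 1.62 at 72h, less than any of the chains. By rank correlation, 5 of these 10 were again among the 10 highest. After the group means were subtracted, the 5 highest were AW112010 (0.863), Trex1, Serinc3, Ly6a and Pim1 (0.828). Deviations of all 16 libraries were pooled for these values, and no group was taken alone. AW112010 was lower in Kaede-red cells over both times (log2 fold change -0.55, standard error 0.18, edgeR adjusted p = 0.0265), although it was 1.50 when scaled by total counts, and the call was lost when any of 5 libraries was left out.

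Among the other genes of the pathway, the partners that turn C1q binding into cleavage were scarce in these cells. The C1r gene C1ra had 0 to 10 counts per Kaede-green and 4 to 92 per Kaede-red library, and its log2 fold change over both times was 0.22 (standard error 0.47, edgeR adjusted p = 0.788). C1s1 had at most 6 counts in a Kaede-green and 22 in a Kaede-red library, and C2 at most 5 and 14. Serping1, which encodes the C1 inhibitor, had at most 2 and 11. C1s1, C2 and Serping1 were below the count filter of the test, and at this depth their change was not measurable.

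Of 59 genes for other complement components, regulators, receptors and C1q-binding proteins, 23 passed the count filter. Over both times 15 of these 23 were higher and 0 lower in Kaede-red cells by edgeR, beside 10.05% and 10.3% of all genes. At least C4a among the 15, with 0 to 5 counts per Kaede-green library, passed the count filter only through Kaede-red libraries. Nothing is read from the direction of its call. At an unadjusted p under 0.05, 2 were lower, and 1 was lower by DESeq2. Their median log2 fold change was 0.52, beside 0.06 over all genes tested. At 24h 7 were higher, and at 72h 12 were higher and 2 lower, beside 7.50% and 16.8% of all genes in either direction. With the Rn45s share as a covariate, 2 of the 23 were higher over both times (C3ar1 and Cd93), beside 0.529% higher and 1.09% lower of all genes. Without that covariate, leaving out the Kaede-green 72h replicate 3 left 10 higher, beside 815 of all 9826 genes then tested. The part of the Rn45s share in these calls was not tested further.

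Of 7 tested components, 5 rose over both times, beside 10.05% of all genes. C4b averaged 1.35 ± 1.16 CPM (SD, n = 4) at 24h in Kaede-green cells against 6.03 ± 0.677 CPM in Kaede-red cells, and at 72h 2.31 ± 0.924 against 8.91 ± 3.12 CPM. Its red-green difference was 1.94 over both times (standard error 0.29, edgeR adjusted p = 7.92e-06). C4a followed with 1.50 (0.43, adjusted p = 0.0115), but C4a and C4b are near-identical, so reads may have been split between them. C3, on which all complement pathways meet, rose over both times by 0.64 (0.17, adjusted p = 0.00681). Its difference was 0.08 at 24h, which did not pass (adjusted p = 0.901), and 1.20 at 72h, which did (adjusted p = 0.000491). The alternative-pathway genes Cfp, for properdin, and Cfb, for factor B, rose by 0.52 and 0.50 on the log2 scale (adjusted p = 0.0192 and 0.015), and neither passed without the Kaede-green 72h replicate 3 (adjusted p = 0.0602 and 0.0516). The 3 regulators tested did not pass over both times in either direction by edgeR. With 10.05% of all genes higher and 10.3% lower, nothing is read from that. At 72h Clu, for clusterin, and Cr1l fell by 2.14 and fell by 0.90 on the log2 scale (adjusted p = 0.0141 and 0.0359). Without the Kaede-red 72h replicate 1 neither passed at 72h, and leaving out any other 72h library except the Kaede-green replicate 4 left 1 of these calls.

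All 6 complement receptor genes tested rose over both times, where 10.05% of all genes were higher. At 24h 3 of them passed and at 72h 5, beside 7.50% and 16.8% of all genes in either direction. C3ar1 averaged 47.7 ± 13.6 CPM (SD, n = 4) at 24h in Kaede-green cells against 132.8 ± 17.2 CPM in Kaede-red cells, and at 72h 49.8 ± 15.3 against 156.0 ± 5.77 CPM. Its red-green difference was 1.56 (standard error 0.16, edgeR adjusted p = 1.06e-08). The C5a receptor genes C5ar1 and C5ar2 rose by 1.01 (adjusted p = 1.19e-05) and 0.77 (adjusted p = 0.0251). The integrin genes of complement receptors CR3 and CR4 rose by 1.03 for Itgax (adjusted p = 5.18e-05), 0.44 for Itgam (0.0189) and 0.39 for Itgb2 (0.0412). At 24h Itgam and Itgb2 had values of -0.024 and 0.054 (adjusted p = 0.967 and 0.915), against 0.90 and 0.72 at 72h (adjusted p = 0.000981 and 0.00766), and the change between the times did not pass (adjusted p = 0.0795 and 0.231). The call for Itgb2 was lost when any of 11 libraries was left out, that for C5ar2 with any of 4 (the Kaede-green 24h replicate 1, the Kaede-red 24h replicates 1 and 2, and the Kaede-green 72h replicate 3), and that for Itgam without replicate 3 of the Kaede-green cells at either time. Vsig4, a macrophage receptor for C3 fragments, had 0 counts in every library, which allows up to 3 counts per library.

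Of 7 tested genes for proteins reported to bind C1q, 4 rose over both times, beside 10.05% of all genes. Apoe, for apolipoprotein E, averaged 50.5 ± 25.4 CPM (SD, n = 4) at 24h in Kaede-green cells against 165.8 ± 54.9 CPM in Kaede-red cells, and at 72h 67.9 ± 15.5 against 181.0 ± 18.9 CPM. Its red-green difference was 1.57 (standard error 0.20, edgeR adjusted p = 4.89e-07). Cd93 rose by 1.43 (adjusted p = 1.28e-07), the inhibitory receptor gene Lair1 by 0.80 (adjusted p = 7.61e-05) and the scavenger receptor gene Lrp1 by 0.75 (adjusted p = 0.000111). Lair1 had 1.29 at 24h (adjusted p = 8.8e-05) and 0.31 at 72h, which did not pass (adjusted p = 0.298), and neither did the change between the times (adjusted p = 0.0744). C1qbp and Calr did not pass (adjusted p = 0.206 and 0.357). Of 27 further genes whose proteins share the C1q globular domain, 3 were tested. Of these 3, 0 passed over both times by edgeR, 0 at an unadjusted p under 0.05 and 0 by DESeq2. With 10.05% of all genes higher and 10.3% lower by edgeR, nothing is read from this count. At 72h Emilin2, for a matrix protein, was higher by 0.94 (adjusted p = 0.00579), against -0.39 at 24h (adjusted p = 0.389), and the change between the times did not pass (adjusted p = 0.0606).

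**Figure D4:**
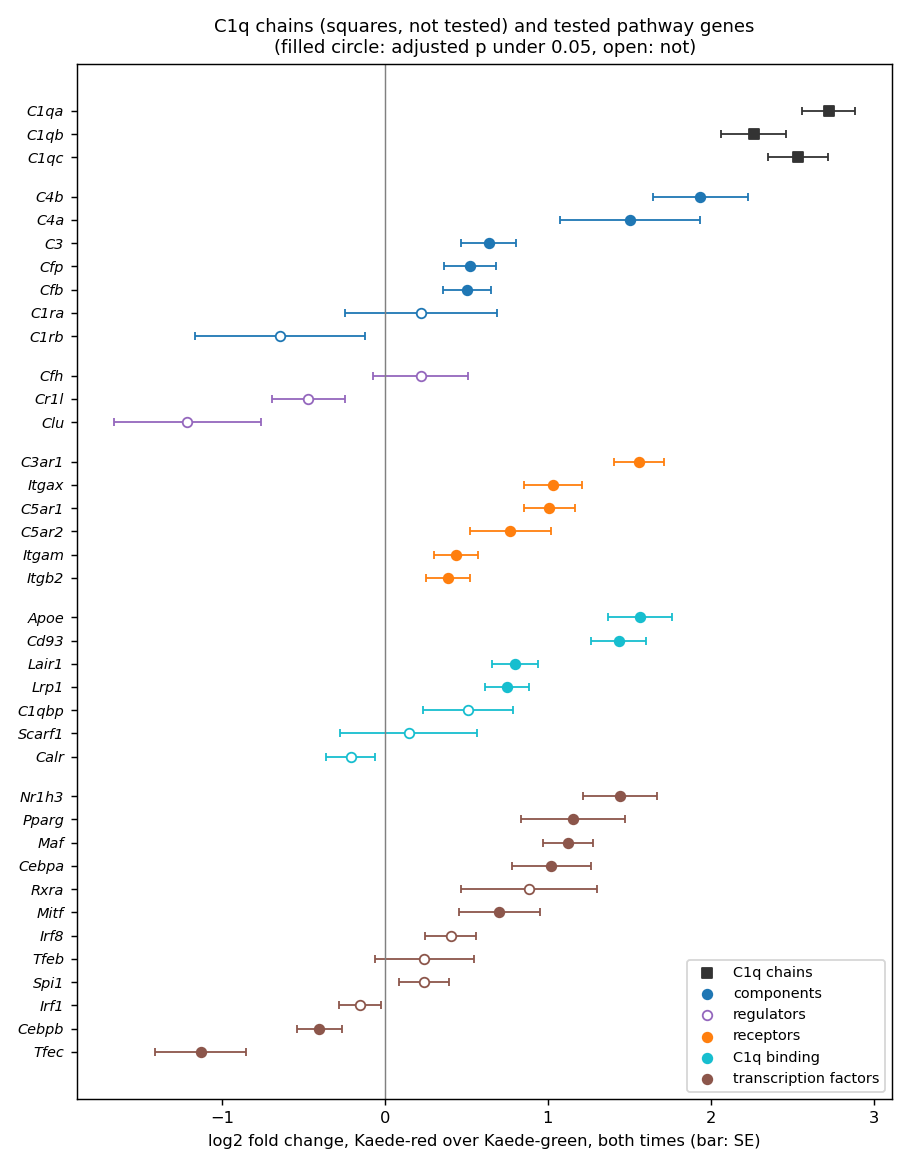
Red-green difference over both times (log2 fold change) for the C1q chains (squares, a description) and for the tested complement, C1q-binding and transcription factor genes, with bars for the standard error. Filled circles passed at an adjusted p under 0.05 and open circles did not. The chains lie at 2.26 to 2.72, and C4b, at 1.94, lies nearest to them. Scaled by total counts, Tfec moves to the right of 0, at 1.18.

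Of 12 tested transcription factor genes of a macrophage list, over both times 5 were higher and 2 lower in Kaede-red cells, beside 10.05% and 10.3% of all genes. With the Rn45s share as a covariate 0 of the 12 were higher and 0 lower, where few of all genes passed (0.529% higher and 1.09% lower). Maf rose by 1.12 (standard error 0.15, edgeR adjusted p = 1.75e-06), Cebpa by 1.02 (adjusted p = 0.00239), and the nuclear receptor genes Nr1h3 and Pparg by 1.44 (adjusted p = 1.55e-05) and 1.16 (adjusted p = 0.00886). Mitf rose by 0.70 (adjusted p = 0.044), a call lost when any of 11 libraries was left out. Spi1, which encodes PU.1, and Irf8 had log2 fold changes of 0.24 (adjusted p = 0.295) and 0.40 (adjusted p = 0.0665). Tfec fell by 1.13 on the log2 scale (adjusted p = 0.00344), and it was at 1.18 when scaled by total counts. Cebpb fell by 0.40 (adjusted p = 0.0352), a call lost when any of 8 libraries was left out.

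The genes around the cluster had smaller differences between the colours than the chains. The 5 nearest tested genes on each side lay 80.9 to 765.9 kb to the right of the cluster and 277.4 to 684.1 kb to its left. Over both times 0 of these 10 were higher and 1 lower in Kaede-red cells, by edgeR, DESeq2 and an unadjusted p under 0.05. Of all genes 10.05% were higher and 10.3% lower by edgeR, so nothing is read from this count. All 10 were higher when scaled by total counts. For Zbtb40, the nearest on the right, the difference was 0.42 (standard error 0.38, adjusted p = 0.479), and for Kdm1a, the nearest on the left, it was 0.22 (0.20, adjusted p = 0.475). Hspg2, for the matrix proteoglycan perlecan, fell by 0.91 on the log2 scale (0.21, adjusted p = 0.0016), and it was at 1.09 when scaled by total counts. Cdc42, the neighbour with the highest level, had 74.0 CPM in Kaede-green against 81.2 CPM in Kaede-red cells.

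**Figure D5:**
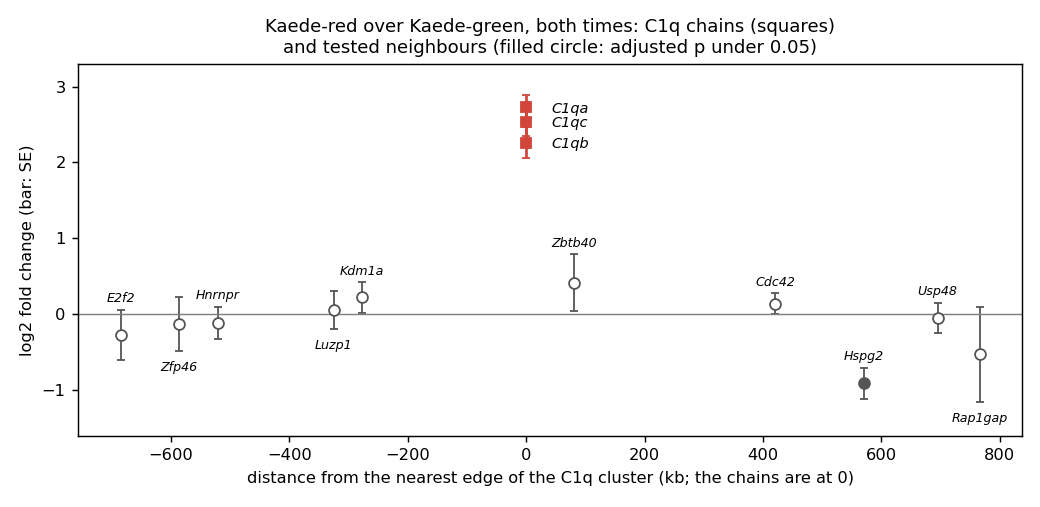
Red-green difference over both times (log2 fold change) for the C1q chains (squares at 0) and the 10 nearest tested genes, with bars for the standard error, against the distance from the nearest edge of the cluster in kb. The chains lie at 2.26 to 2.72 and the neighbours between -0.91 and 0.42, and Hspg2 (filled) passed at an adjusted p under 0.05. Scaled by total counts, Hspg2 lies at 1.09.

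RNA of macrophage markers was higher in the same cells as the chains. Of 18 tested macrophage marker genes, 12 were higher in Kaede-red cells over both times by edgeR and by DESeq2, beside 10.05% of all genes by edgeR. At an unadjusted p under 0.05, 14 were higher, and 0 were lower by any of these. The others had log2 fold changes of -0.0031 for Fcgr1, 0.34 for Ctss, 0.54 for Trem2, 0.27 for Vcam1, 0.51 for Cx3cr1 and 1.28 for Cd163, and did not pass (adjusted p from 0.0902 to 0.993). The summed level of the list was 783 to 1187 CPM in Kaede-green against 1221 to 1761 CPM in Kaede-red libraries at 24h, and 916 to 1153 and 1520 to 1660 CPM at 72h. Pf4 rose by 2.72 on the log2 scale (standard error 0.31, edgeR adjusted p = 9.38e-08). Folr2, which marks macrophages that reside in tissues, had a mean of 0.267 CPM at 24h in Kaede-green libraries against 6.56 CPM in those of Kaede-red cells, and 0.348 against 3.08 CPM at 72h, on 0 to 3 and 24 to 138 counts. Gas6 had 0.139 against 1.77 CPM at 24h and 0.198 against 2.19 CPM at 72h, on 0 to 2 and 2 to 139 counts. Lyve1, another marker of resident cells, had 0 or 1 counts per Kaede-green and 0 to 43 per Kaede-red library, passed at neither time alone, and its call over both times (adjusted p = 0.0453) was lost when any of 11 libraries was left out. Of the 12 higher markers, at least Folr2, Gas6 and Lyve1 passed the count filter only through Kaede-red libraries. Nothing is read from the direction of their calls. Of 8 monocyte markers, 4 were lower over both times (Plac8, Hp, Chil3 and Vcan), beside 10.3% of all genes. All 4 turned to values above 0 when scaled by total counts. The monocyte sum was 1069.8 to 1700.1 CPM in Kaede-green against 556 to 661 CPM in Kaede-red libraries at 24h, and 809 to 1204.5 and 612 to 842 CPM at 72h. The lower Kaede-red sum at 72h rested on Plac8. Without Plac8 the other 7 markers summed to 434 to 511 CPM in Kaede-green against 522 to 652 CPM in Kaede-red libraries at 72h, and 449 to 748 against 323 to 459 CPM at 24h. At 72h 1 of the 8 was lower, where 845 of all 9642 genes were. Their median log2 fold change at that time was 0.26, beside 0.035 over all genes. The part of these shifts in the C1q values was not tested.

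The summed neutrophil markers were at 8.60 to 12.3 CPM in Kaede-green against 9.07 to 14.5 CPM in Kaede-red libraries at 24h, and at 10.4 to 12.9 against 17.8 to 23.3 CPM at 72h, where they were higher in the same cells as the chains. That sum rested largely on Csf3r, for the receptor of granulocyte colony stimulating factor. At 72h Csf3r had a mean of 16.4 CPM among Kaede-red libraries, against 7.42 CPM for Kaede-green. Csf3r rose by 0.67 over both times (edgeR adjusted p = 0.00566). Of the 9 markers summed, only Mmp8 was also tested. Mmp8 did not pass over both times (0.51, adjusted p = 0.287) or at 72h (1.29, adjusted p = 0.0538). The remaining markers were below the count filter. Dendritic cell markers summed to 6.54 to 14.05 CPM over all libraries, and of 4 tested, Ccr7 was higher (4.52, adjusted p = 0.000403, on 0 to 4 counts per Kaede-green and 5 to 90 per Kaede-red library) and Fscn1 lower (-0.54, adjusted p = 0.0498, a call lost when any of 11 libraries was left out). Of all genes 10.05% were higher and 10.3% lower over both times. Ccr7 passed the count filter only through Kaede-red libraries, so nothing is read from the direction of its call. The summed markers of T and NK cells lay between 0.611 and 5.73 CPM, and those of B cells at 2.45 CPM or less. Fibroblast markers summed to 42.0 to 55.2 CPM in Kaede-green against 20.03 to 38.9 CPM in Kaede-red libraries at 24h, and to 46.1 to 51.5 and 12.7 to 19.6 CPM at 72h, the opposite direction to the chains. Endothelial markers summed to 9.77 to 19.2 CPM in Kaede-green against 18.1 to 36.8 CPM in Kaede-red libraries, but their genes went both ways. Over both times Kdr and Pecam1 were higher (1.06 and 1.02, edgeR adjusted p = 1.77e-05 and 0.00308). Cdh5 was lower (-1.42, adjusted p = 0.0377), a call lost when any of 10 libraries was left out. The part of these markers in the C1q values was not tested.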

How the data were processed

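RNA-seq was analysed for 16 libraries, 4 per group, grouped by Kaede colour and hours after photoconversion as the labels give them. The authors used Trim Galore for trimming, FastQC for quality, HISAT2 for alignment to mm10 and featureCounts for counting per gene. Versions, gene annotation and strand setting are not given in the sources used here. The deposited values are raw counts per gene, and 0 columns of values were left unused. Replicates differed by more than sampling noise (chi-square per gene 3.21 to 95.6 over 24 pairs), so none was a copy. The study describes these libraries as tumours of separate mice, and whether both colours of one tumour were sequenced is not given in the sources used here.

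Counts were fitted with edgeR 4.0.16 in R 4.3.3 (filterByExpr, 9642 genes, TMM factors, 1 mean per group, quasi-likelihood test), with Benjamini-Hochberg adjustment over all genes tested and a threshold of 0.05. Standard errors of edgeR log2 fold changes, also those of the chains, were the absolute log2 fold change divided by the square root of the test's F statistic. Log2 CPM used a prior count of 2, and ratios a prior count of 0.5 on the log2 scale. Positions came from the GENCODE annotation of the same build, and upstream sequence from RefSeq (GRCm38.p6). The C1q genes and all gene lists were chosen with earlier results of these data known. Named genes were the chains, up to 6 passing genes of the largest change per complement, C1q-binding or transcription factor list and up to 5 per macrophage or monocyte list, C1ra, C1s1, Serping1, Irf8 and Spi1, the nearest neighbours and the genes most like the chains. Cebpb, C2, C1qbp, Calr, Clu, Cr1l, Vsig4, Emilin2, Csf3r, Mmp8, Ccr7, Fscn1, Kdr, Pecam1, Cdh5, Ms4a7 and the macrophage markers that did not pass were named after their values were seen. Of the transcription factor and monocyte lists, 2 genes are not reported here and are left out of the counts. Alternatives were DESeq2 1.42.0, RLE factors, scaling by library size, omission of Rn45s, other count filters, the Rn45s share as a covariate, only the groups compared, a replicate block, and leaving out each library. The fitting procedure was tested on simulated data.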

Additional observations from a re-analysis of the deposited data

Results flagged for a closer look

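Within the groups of 4 libraries, 52 sets of C1q values (levels, ratios, shares and counts relative to macrophage genes) were checked for a library far from the other 3, and 2 were found, where chance alone gives about 1 in 20. The Kaede-green 72h replicate 1 held 0.765 C1q counts per Cd68 count, below the other libraries of its group, whose values were 1.50, 1.52 and 1.43. The Kaede-green 24h replicate 2 held 3.54 C1q counts per Mrc1 count, above 1.50, 1.28 and 1.17 in the others.

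The red-green difference of 2 of 8 monocyte genes and 1 of 18 macrophage genes changed between 24h and 72h, beside 0.757% of all genes. Of the 23 tested complement and C1q-binding genes, 0 passed this test by edgeR, with 6 at an unadjusted p under 0.05 and 2 by DESeq2. As so few of all genes passed, nothing is read from that 0. Hp, for haptoglobin, differed by -2.45 at 24h and -0.56 at 72h, a change of 1.89 (standard error 0.39, edgeR adjusted p = 0.0243). Vcan, for versican, differed by -1.62 and 0.36, a change of 1.98 (0.36, adjusted p = 0.0131). The macrophage gene Ms4a7 differed by 2.19 and 0.52, a change of -1.68 (0.31, adjusted p = 0.0141). The call for Hp was lost when any of 8 libraries was left out (adjusted p up to 0.0783), and those for Vcan and Ms4a7 without the Kaede-red 24h replicate 3 (adjusted p = 0.052 and 0.057). Scaled by library size only none of the 3 passed (the lowest, for Ms4a7, was an adjusted p of 0.371).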

How the results depend on the processing

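All 3 chains were higher in Kaede-red cells, over both times and at each time, under every alternative run. Scaled by library size only, which moved the median of all genes to 2.20 (no count filter moved it to 0.22), the values of C1qa, C1qb and C1qc were 4.89, 4.32 and 4.65 over both times, 5.67, 4.65 and 4.86 at 24h, 4.10, 3.98 and 4.45 at 72h, and 1.99, 1.15 and 1.13 from 24h to 72h within Kaede-green cells. C1qa then had 0.42 from 24h to 72h within Kaede-red cells, and the shift of the red-green difference between times was -1.57 for C1qa and -0.41 for C1qc. With the Rn45s share as a covariate they were 2.33, 1.70 and 2.04 over both times, 2.91 for C1qa and 2.05 for C1qc at 24h, and 1.76, 1.54 and 2.03 at 72h. This share differs between the colours, so its part and that of the colour are hard to separate.

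Leaving out each library in turn gave the following ranges. For C1qa, C1qb and C1qc they were 2.66 to 2.80, 2.12 to 2.44 and 2.43 to 2.72 over both times. Then 0 to 1 complement or C1q-binding genes were lower and 10 to 15 higher. Of all 9534 to 10172 genes tested, 831 to 1064 were lower and 747 to 1031 higher. With the Rn45s share as a covariate 2 were higher, beside 0.529% of all genes. With DESeq2, RLE factors or Rn45s left out, 1 was lower, beside 1230, 1069 and 1070 of all genes. Of the 10 genes most like the chains, 8 to 10 stayed when a library was left out, 7 with library sizes outside Rn45s and 5 by Spearman's rank correlation.

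Scaled by library size only, these turned to values above 0 over both times: Tfec 1.18, Plac8 0.14, Hp 0.63, Chil3 0.93, Vcan 1.67, E2f2 1.86, Zfp46 2.06, Hnrnpr 2.02, Hspg2 1.09, Usp48 2.16, Rap1gap 1.60, AW112010 1.50 and Pim1 1.78, as did Vcan 0.91 at 24h and Hp 1.34 at 72h. With the Rn45s share as a covariate, C1ra -0.082, Irf8 -0.079, Spi1 -0.094, Zbtb40 -0.059, Cdc42 -0.15, Trex1 -0.25, Hnrnpr 0.076 and Rap1gap 0.34 changed sign. Without a count filter Hnrnpr (0.0057) and Usp48 (0.076) did. With each library left out in turn, values of both signs were found for C1ra (-0.023 to 0.54), Zfp46 (-0.29 to 0.30), Hnrnpr (-0.24 to 0.015), Luzp1 (-0.067 to 0.31) and Usp48 (-0.11 to 0.043). The cause of these shifts was not tested.

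Same-numbered libraries did not deviate together (correlation -0.02 to 0.15 over 8 pairs, with 2 of 8 Kaede-red libraries closest to their own number), so the numbers were not taken as pairs. With a replicate block, 14 complement or C1q-binding genes were higher and 0 lower over both times, beside 897 higher and 887 lower of all 9642 genes. For the change with time 2 passed, and the count over all genes in that fit is not given here. C5ar2, over both times, no longer passed (edgeR adjusted p = 0.0585). The Kaede-green values rest on 14 to 113 counts per chain.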
